A study of Mus musculus with 12 samples.

Results

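Gnai3, Gna12 and Fer are 3 mouse genes that code for signalling proteins at the cell membrane: the alpha subunits of the G proteins Gi3 and G12, and a tyrosine kinase. They were chosen by name, as the genes with the symbols Gnai3, Gna12 and Fer in the deposited expression tables, and are 3 of the 27942 genes analysed. All 3 were among the 1737 genes that passed the filter on low values (3 or more libraries with an FPKM of at least 1) and were tested. FPKM is the number of fragments assigned to a gene, scaled to the length of the gene and the size of the library.

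The libraries came from C2C12, a mouse myoblast line that forms multinucleated myotubes after serum withdrawal. The control group was untreated and the OI group received 25 µmol/L of 4-octyl itaconate, an ester of the metabolite itaconate that enters cells. RNA of both groups was taken on day 7 of differentiation, in medium with 2% horse serum that followed growth in 10% fetal bovine serum to 80% density, and each group had 3 libraries. The title of the series speaks of OI repressing this differentiation, and the groups were compared to see which transcripts differ. No label says that the replicates were grown separately, so the p-values rest on a spread between libraries that may be technical. A second set of 3 control and 3 OI samples was not analysed here.

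Heterotrimeric G proteins carry the signal of membrane-spanning receptors into the cell: the receptor loads the alpha subunit with GTP, and the alpha subunit and the beta and gamma pair then act on separate effectors until GTP is hydrolysed. Gnai3 encodes an alpha subunit of the Gi class, which lowers cyclic AMP by inhibiting adenylyl cyclases. Gna12 encodes an alpha subunit of the G12 and G13 class, which acts on the actin cytoskeleton and, through the MRTF and SRF transcription factors, on many muscle genes. Fer is a cytoplasmic tyrosine kinase with an F-BAR and an SH2 domain that acts on cortactin and on catenins at cadherin contacts, structures that are also used when myoblasts adhere and fuse.

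The coding sequence shows how the G protein subunits are related and how they differ. GENCODE release M21 gives 354 residues for Gnai3 and 379 for Gna12, and 152 of the 350 residues aligned between them are identical (43.4%). The deposited annotation lists a G-alpha domain in both. In Gna12 it places the domain at positions 81 to 413, past the 379 residues of M21, so it rests on a different sequence. The loop that binds the phosphates of the guanine nucleotide is a part that Gnai3 and Gna12 share. Its 8 codons are in capitals in the next lines, 5′ to 3′, with 3 codons on each side.
Gnai3 codons 40 to 47: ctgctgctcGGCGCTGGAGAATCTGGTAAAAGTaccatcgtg
Gna12 codons 62 to 69: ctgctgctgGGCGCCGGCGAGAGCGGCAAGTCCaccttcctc
Of the 24 bases in capitals 13 are identical. The last codons show a class difference. In Gi subunits a cysteine near the end of the protein is the residue that pertussis toxin modifies, and the end of the protein contacts the receptor. The last 10 codons follow, with the codon at position 4 from the end in capitals.
Gnai3 tail: aaaaacaacttaaaggaaTGTgggctttat
Gna12 tail: caggagaacctgaaagacATCatgctgcag
The codon in capitals encodes cysteine at residue 351 of Gnai3 and isoleucine at residue 376 of Gna12.

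Fer is built differently. The deposited annotation lists a protein kinase, an SH2 and an FCH (F-BAR) domain, and the M21 coding sequence has 823 codons. The stretches that mark its SH2 domain and its kinase domain are printed next, since they identify it as a phosphotyrosine-binding kinase; capitals mark the arginine-containing motif of the SH2 pocket, the catalytic loop and the metal-binding motif that begins the activation segment.
Fer SH2 pocket, codons 481 to 484: caaggagacTTCCTGGTGCGGgagagccat
Fer catalytic loop, codons 683 to 685: aactgcattCACAGGGACctggctgca
Fer metal-binding motif, codons 703 to 705: aaaatcagtGACTTTGGAatgtctcgg

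The 3 genes lie on different chromosomes (mm10). Gnai3 (ENSMUSG00000000001) is at chr3:108107280-108146146 on the minus strand, with 9 exons, 1 annotated transcript and a deposited length of 3262 bases. Gna12 (ENSMUSG00000000149) is at chr5:140758408-140830431 on the minus strand, with 4 exons in its longest transcript and a length of 3416 bases. It shares 456 exonic bases with Amz1 on the opposite strand, which was not analysed here; no source used here gives the strand setting of the counting. Fer (ENSMUSG00000000127) is at chr17:63896018-64139494 on the plus strand, with a deposited length of 3008 bases. GENCODE M21 places the start of Fer 32956 bases further upstream, and its 5 transcripts there are at most 2973 bases long, so the deposited model differs from these. Gnai3 and Fer share no exonic bases with another gene in M21.

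Depth and composition of the libraries were as follows. Library sizes recovered from the FPKM values ran from 24441000 to 36274000 reads or fragments. The genes analysed took 23.85% of them in control replicate 1 and between 5.251% and 5.765% in the others. A single RNA, AY036118, stood at 70761 FPKM in control replicate 1 and between 691 and 2450 FPKM in the others, so this library stands apart. AY036118 took 6.531% of the reads of control replicate 1, which is only a part of the 23.85%. Of the skeletal muscle markers 1 of 24 was in the tables: Tnnc1, the troponin C of slow and cardiac muscle, fell from 126.2 to 23.21 FPKM (log2 fold change -2.39 ± 0.11 SE; limma, Benjamini-Hochberg adjusted p = 0.000188). None of the 7 fibroblast, 6 adipocyte, 5 macrophage or 5 endothelial markers were in the tables. The tables hold 2468 protein-coding genes among the 27942 genes analysed. A marker that is missing from them was therefore not measured here, and its absence says nothing of its level. In these bulk samples, fewer cells of a type and less RNA per cell cannot be told apart.

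With OI, the mean of Gnai3 was 10.7% and that of Gna12 9.27% higher than in the controls, and the mean of Fer was 11.5% lower, and none of these differences passed the test. By mean FPKM over the 6 libraries, Gnai3 ranked 25, Gna12 64 and Fer 65 among the 310 protein-coding genes tested. These ranks hold within the deposited tables only. Gnai3 was the highest of the 3 in every library.

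Gnai3, the Gi subunit, stood at 35.28, 37.78 and 37.63 FPKM in control replicates 1, 2 and 3 and at 38.92, 43.28 and 40.38 FPKM in OI replicates 1, 2 and 3. Every OI library was above every control library. The group means were 36.9 ± 1.40 FPKM without OI and 40.86 ± 2.22 FPKM with it (SD, n = 3). On the log2(FPKM + 1) scale the difference was 0.14 ± 0.07 (SE), with a 95% interval from -0.03 to 0.32, that is from 0.979-fold to 1.245-fold. The limma test gave an adjusted p of 0.366, adjusted over all 1737 genes.

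Gna12, the subunit of the G12 and G13 class, stood at 14.55, 16.72 and 15.29 FPKM in control replicates 1, 2 and 3. The OI replicates 1, 2 and 3 stood at 16.37, 17.85 and 16.66 FPKM. The groups overlap, because control replicate 2 was above OI replicates 1 and 3. The means were 15.52 ± 1.10 FPKM without OI and 16.96 ± 0.785 FPKM with it (SD, n = 3), a log2 difference of 0.12 ± 0.08 (SE; limma adjusted p = 0.487). The 95% interval ran from 0.952-fold to 1.244-fold.

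Fer, the tyrosine kinase, stood at 17.80, 17.43 and 16.20 FPKM in control replicates 1, 2 and 3 and at 15.32, 16.16 and 14.02 FPKM in OI replicates 1, 2 and 3. The groups did not overlap, by a narrow margin: the lowest control library was at 16.20 and the highest OI library at 16.16 FPKM. The means were 17.14 ± 0.841 FPKM without OI and 15.17 ± 1.08 FPKM with it (SD, n = 3). The log2 difference was -0.17 ± 0.08 (SE), with a 95% interval from -0.36 to 0.03 and a limma adjusted p of 0.355.

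**Figure D1:**
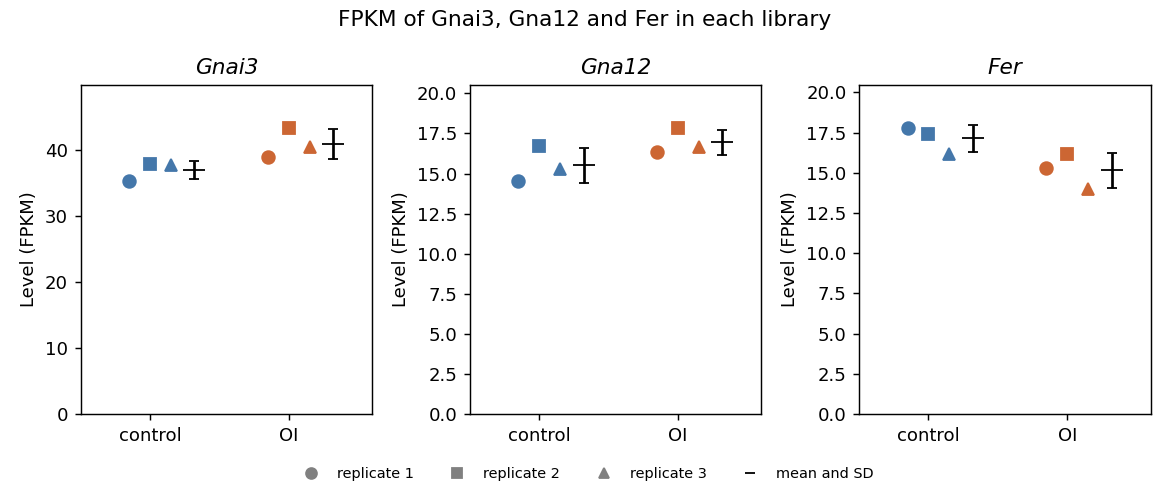
FPKM of Gnai3, Gna12 and Fer in each of the 6 libraries (points, shape by replicate number) with the mean and SD of each group in black; every vertical axis starts at 0. The OI libraries of Gnai3 sit between 38.92 and 43.28, above the controls, those of Fer sit between 14.02 and 16.16, below the controls, and those of Gna12 overlap the controls.

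Among all genes tested, 48 (2.76%) passed an adjusted p of 0.05, 20 higher and 28 lower with OI, and 0 of the 3 genes were among them. At an unadjusted limma p under 0.05 the count was 0 of 3, against 17.8% of all genes tested; limma voom on the recovered reads gave 1 of 3, against 14.6% of the 3066 genes in that fit: Gnai3, with an unadjusted p of 0.0451 and an adjusted p of 0.329. The groups did not overlap for 2 of the 3 genes, against 23.6% of all genes tested and 32.9% of the protein-coding ones. The sizes of the differences lay near the middle of those of protein-coding genes. Ranked by absolute log2 difference among the 310, Gnai3 lay at the 47.7 percentile, Gna12 at the 43.6 and Fer at the 56.5 percentile.

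**Figure D2:**
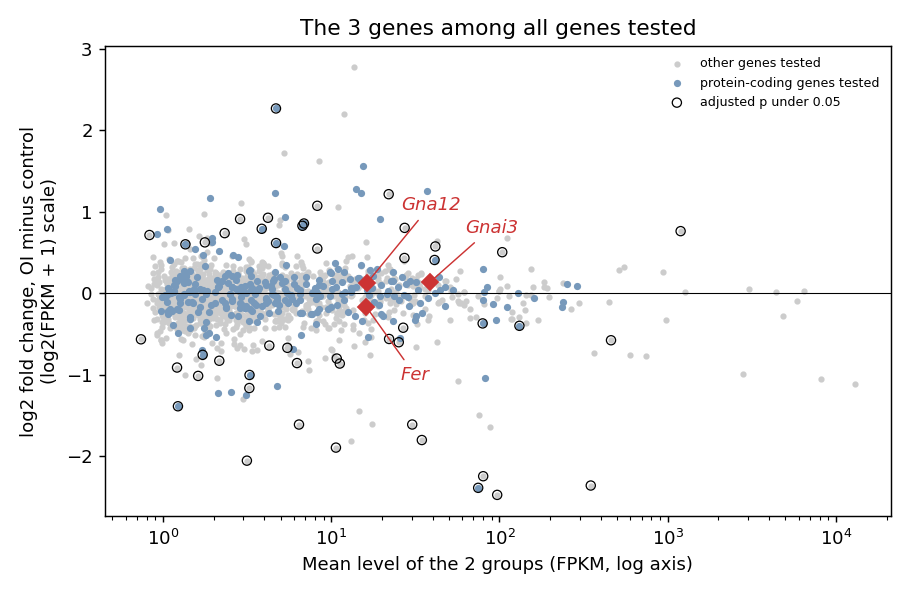
Log2 fold change (OI minus control, log2(FPKM + 1) scale) against the mean level of the groups (FPKM, log axis) for the 1737 genes tested, with protein-coding genes in blue, genes past an adjusted p of 0.05 circled and the 3 genes as red diamonds. Gnai3 (0.14), Gna12 (0.12) and Fer (-0.17) lie within the band that holds most genes, and none is circled.

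Control replicate 1 had the lowest Gnai3, the lowest Gna12 and the highest Fer of the 6 libraries. It is also the library with the high share of AY036118. Scaled to library sizes without AY036118, the log2 differences were 0.11 for Gnai3, 0.09 for Gna12 and -0.20 for Fer. Scaled to library sizes without all genes analysed, they were 0.05, 0.03 and -0.26, so the sizes moved by more than 1.5 times while the directions stayed. Without control replicate 1 they were 0.11, 0.08 and -0.14 on the log2 scale. The part of library composition in these differences was not tested.

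**Figure D3:**
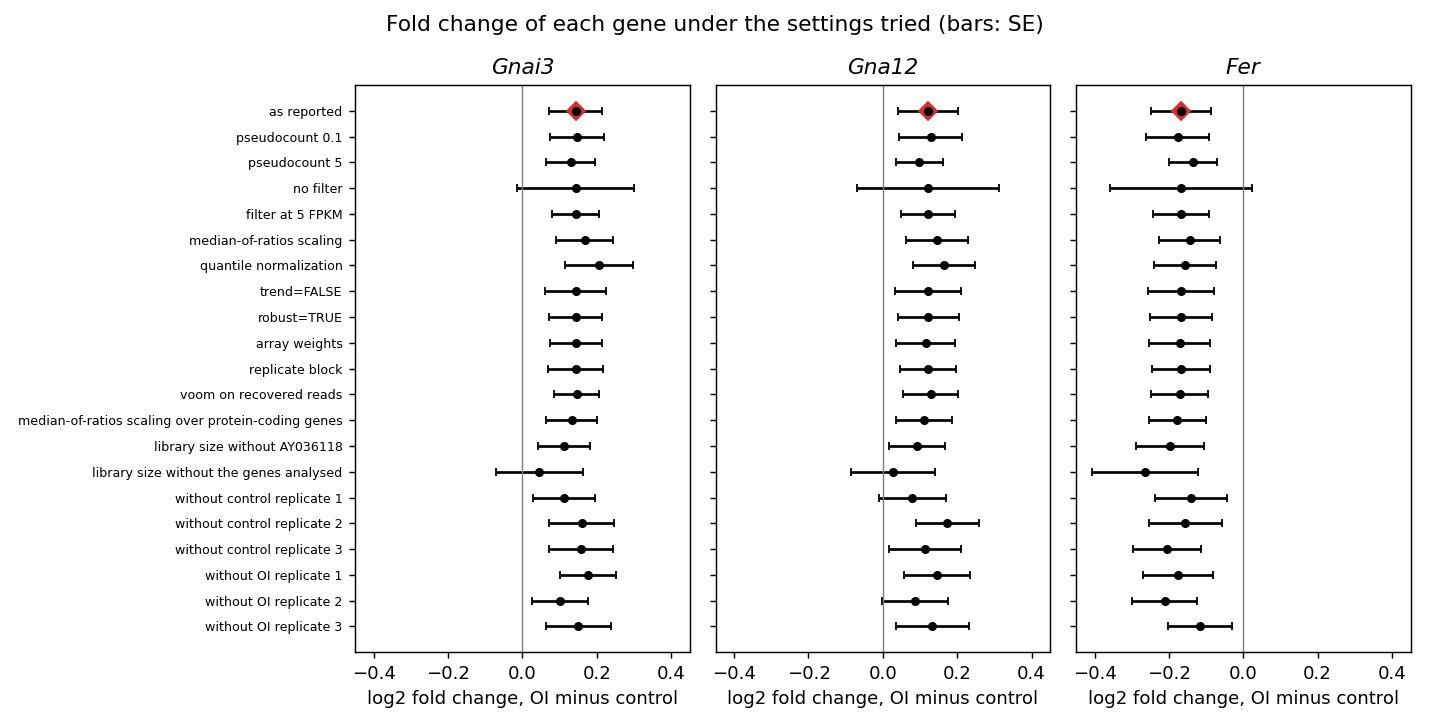
Log2 fold change of each gene (OI minus control) as reported (red diamond) and under 20 of the 21 alternative settings, with SE bars; rescaling to a common sum, whose values are 0.70, 0.65 and 0.37, is left out because its points or bars fall outside the axis. The points of Gnai3 and Gna12 stay to the right of 0 and those of Fer to the left under the settings drawn. Some SE bars cross 0, as without a filter for Gnai3 (0.14 ± 0.16), Gna12 (0.12 ± 0.19) and Fer (-0.17 ± 0.19).

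A ratio of levels within 1 library does not depend on how that library was scaled. The Gnai3 to Gna12 ratio was 2.425, 2.26 and 2.461 in control replicates 1, 2 and 3 and 2.378, 2.424 and 2.423 in OI replicates 1, 2 and 3. The groups overlap and their means were 2.382 ± 0.107 and 2.408 ± 0.0266 (SD, n = 3). The log2 difference was 0.02 (two-sided exact permutation test, p = 1). This difference is smaller than the spread between the control libraries, and the overlap rests on control replicate 2: without it the log2 difference was -0.02 and the groups did not overlap.

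The ratios that involve Fer did not overlap between groups. For Gnai3 to Fer this follows from the levels already given, since all OI libraries were above the controls for Gnai3 and below them for Fer, and it is no further evidence. The Gnai3 to Fer ratio was 1.982, 2.167 and 2.324 in control replicates 1, 2 and 3 and 2.541, 2.678 and 2.879 in OI replicates 1, 2 and 3, with no overlap. It was 25.2% higher in OI by the log2 means, a log2 difference of 0.32. The Fer to Gna12 ratio was 1.223, 1.043 and 1.059 in the controls and 0.9359, 0.9053 and 0.8416 in OI, a log2 difference of -0.31. Fer was therefore above Gna12 in 3 of 3 control libraries and below it in 3 of 3 OI libraries. For both ratios the two-sided exact permutation test gave p = 0.1, the smallest value that the 20 arrangements of 3 against 3 allow, and 0.15 adjusted over the 3 ratios, so neither passed a threshold of 0.05. Without control replicate 1 the log2 differences were 0.26 and -0.23, still without overlap. The Fer level rests on a gene model for which FPKM times length gave no whole reads, so its order relative to Gna12 holds for the deposited length only.

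**Figure D4:**
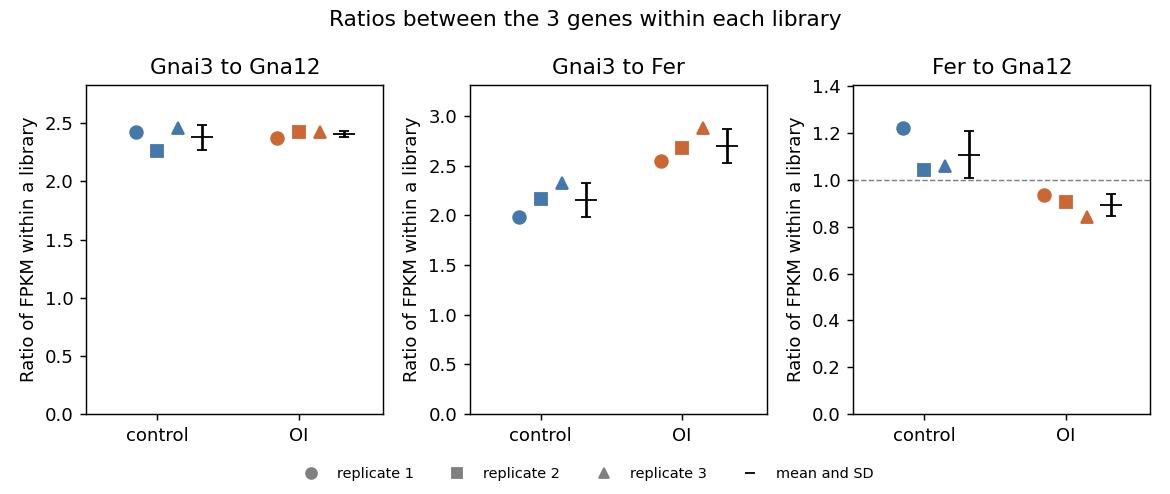
Ratios of FPKM between the 3 genes within each library, by group, with the mean and SD in black and axes that start at 0; the dashed line marks a Fer to Gna12 ratio of 1. The Gnai3 to Gna12 ratio overlaps between groups, the Gnai3 to Fer ratio is between 2.541 and 2.879 in OI and at most 2.324 in control, and the Fer to Gna12 ratio is above 1 in the controls and below 1 in OI.

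Read numbers show the joint movement of Gnai3 and Gna12 against counting error. For both genes FPKM times length gave whole reads within 0.01 in every library: between 2813 and 5121 reads for Gnai3 and between 1215 and 2212 for Gna12, a counting error of at most 1.885% and 2.869%. Gnai3 took 69.84%, 68.33% and 70.15% of the reads of both genes in control replicates 1, 2 and 3 and 69.42%, 69.83% and 69.82% in OI replicates 1, 2 and 3. No difference between these shares beyond sampling noise was found (chi-square test on the reads of 6 libraries, p = 0.370). That test did not compare OI with control and does not show that the shares are equal. Against library size, replicates of 1 group differed by more than that noise, with a chi-square p of 0.0110 in control and 1.479e-06 in OI for Gnai3, and of 0.0006001 in control and 0.0148 in OI for Gna12. Intervals and tests on reads cover counting error only.

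**Figure D5:**
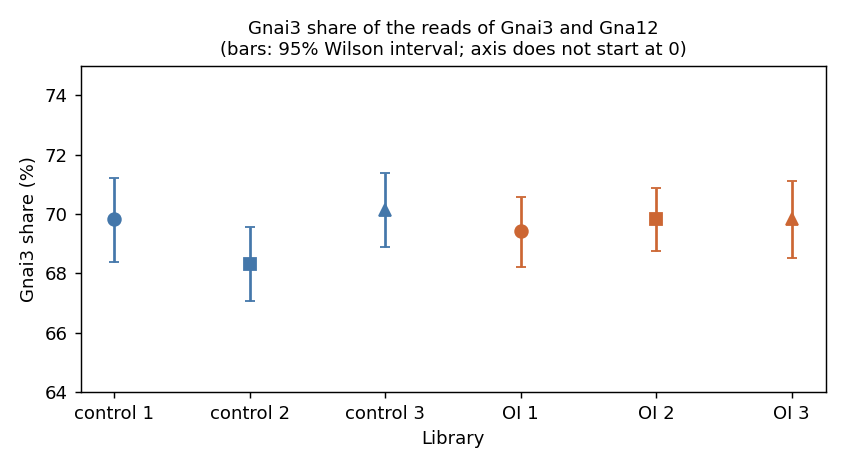
Share of Gnai3 (%) in the recovered reads of Gnai3 and Gna12 in each library, with 95% Wilson intervals; the axis does not start at 0. The 6 shares lie between 68.33% and 70.15%, and the intervals of control and OI libraries overlap.

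Across the 6 libraries the log2 levels of Gnai3 and Gna12 had a Pearson correlation of 0.909, those of Gnai3 and Fer of -0.564 and those of Gna12 and Fer of -0.401. Among the 147 tested genes that had a mean of 5 FPKM or more and were no predicted models, the genes most like Gnai3 were Ube2d2a, a ubiquitin-conjugating enzyme (r = 0.950), Zfp955a, a zinc finger gene, and Gna12. The genes most like Gna12 were Klf6, a zinc finger transcription factor (r = 0.978), Zfp955a (0.949) and Mfsd14a (0.948). The genes most like Fer were Sdhd, a membrane subunit of succinate dehydrogenase (r = 0.961), Mir6340 (0.909) and Bcl2l2, a relative of Bcl2 that promotes survival (0.898). All values in a library share that library's size and composition, and these correlations over 6 libraries are a description.

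Of the 8 genes named for their likeness, which include Gna12, none passed the test, where 2.76% of all genes tested did. Their limma adjusted p lay between 0.307 (Bcl2l2) and 0.717 (Mfsd14a). Klf6 had means of 22.08 and 24.52 FPKM in control and OI, and Ube2d2a of 46.11 and 48.81 FPKM. Sdhd had means of 81.73 and 77.1 FPKM and Bcl2l2 of 20.28 and 18.19 FPKM.

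The partners of these proteins could be followed only in part. The lists of G protein subunits, regulators, effectors, Fer partners and receptors hold 142 genes, and Gnai3, Gna12 and Fer were the 3 found in the tables; the others were not analysed here. A further 7 tested genes share exonic bases on the opposite strand with a list gene or match one in the deposited SwissProt annotation; they were linked after the data were seen. Of these 4 had higher and 3 lower means with OI, where 774 of all genes tested were higher and 963 lower. None of the 7 passed the test, and 2.76% of all genes tested did. Their median log2 difference was 0.04, against -0.02 over all genes tested. The lowest adjusted p of the 7 was 0.182 (limma), of a gene not named here with means of 20.03 and 24.87 FPKM in control and OI and no overlap between groups. Without the strand setting, reads of the genes on the opposite strand cannot be told apart from those of the list gene.

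Gm20721, opposite Gnas (the Gs alpha subunit, which stimulates adenylyl cyclases), stood at means of 279.5 and 296.1 FPKM in control and OI, and every OI library was above every control library (log2 difference 0.08, adjusted p = 0.547). Gm29331, opposite the adenylyl cyclase Adcy6, an enzyme that Gi subunits inhibit, had means of 16.35 and 16.12 FPKM. Gm43791, opposite Rgs12, a GTPase-activating protein for Gi subunits, had means of 5.50 and 4.10 FPKM (log2 difference -0.34, adjusted p = 0.387).

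The deposited functional annotation adds genes outside the lists. Of 433 genes annotated to G protein-coupled receptor signalling, 361 were at 0 in all 6 libraries and 431 stayed below 1 FPKM in every library. The 2 tested were Gnai3 and Gna12. Most genes analysed were low, since 1737 of all 27942 passed the filter. None of the 30 listed receptors of muscle cells was among the genes analysed, so these counts do not describe receptor signalling in the cells as a whole. Of 11 genes annotated to a term that ends in protein tyrosine kinase activity, 2 were tested: Fer and Gm12346, a transcribed processed pseudogene. Gm12346 had means of 23.09 and 30.68 FPKM in control and OI (log2 difference 0.39, limma adjusted p = 0.0946). Fer and Gna12 were the 2 tested of 4 genes annotated to regulation of fibroblast migration. Of 128 genes annotated to GTPase activity 20 were tested, 14 of them processed pseudogenes and 5 protein-coding, and 0 passed, where 2.76% of all genes tested did.

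The promoters of Gnai3 and Gna12, the G protein subunits, are printed as a description. The levels of these genes correlated at 0.909, but Klf6 (0.978), Zfp955a (0.949) and Mfsd14a (0.948) were closer to Gna12. Shared regulation was not tested. The sequences are RefSeq's (GRCm38.p6), on the strand of the gene, 5′ to 3′. They run from 250 bases before to 50 bases after the annotated start. E-boxes are in capitals (CANNTG, a general pattern that is not specific to MyoD-class factors).
Gnai3 promoter, chr3:108146103-108146402, minus strand: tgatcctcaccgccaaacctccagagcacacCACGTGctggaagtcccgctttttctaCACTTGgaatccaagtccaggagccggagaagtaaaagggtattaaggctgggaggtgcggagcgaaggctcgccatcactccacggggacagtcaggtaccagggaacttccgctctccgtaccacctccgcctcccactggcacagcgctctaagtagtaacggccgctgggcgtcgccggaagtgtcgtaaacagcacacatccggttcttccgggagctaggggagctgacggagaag
Gna12 promoter, chr5:140830382-140830681, minus strand: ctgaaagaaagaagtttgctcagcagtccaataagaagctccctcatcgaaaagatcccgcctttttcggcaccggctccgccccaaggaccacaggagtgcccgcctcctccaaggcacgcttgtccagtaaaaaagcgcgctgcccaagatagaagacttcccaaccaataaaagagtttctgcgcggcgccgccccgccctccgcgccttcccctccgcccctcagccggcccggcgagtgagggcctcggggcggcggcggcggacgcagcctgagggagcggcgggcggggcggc
Gnai3 holds 2 E-boxes, 219 and 192 bases upstream of the RefSeq start, and Gna12 holds none; 72.31% of 32851 promoters hold at least 1. RefSeq lists 3 promoters for Fer, of which the first (chr17:63863731-63864030) holds no E-box, the second 1 and the third 4. The deposited Fer model starts at chr17:63896018, outside all 3 windows. The core of the antioxidant response element (TGACNNNGC on either strand), the site of NRF2, is in 12.39% of all promoters and the CArG box of SRF in 1.629%, and neither was found in the 5 windows. The GC content was 59.3% in Gnai3, 65.7% in Gna12 and 71.3%, 46.3% and 50.7% in the Fer windows in the same order, against a median of 52.67% over all promoters. These matches describe the letters of the windows and say nothing of binding.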

How the data were processed

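The authors deposited 1 table of FPKM values per library. The RNA (RNAiso Plus extraction) was total RNA and the library kit was TruSeq RNA, per the labels' protocols. The build mm10 and the tools StringTie 1.3.3b, HISAT2 2.1.0 and cutadapt 2.7 are named, per the submitters' processing notes; annotation, read layout and strand setting are not given in the sources examined. The deposited gene length was read as other annotation. Of 27943 genes 1 had a broken annotation and was left out.

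Genes with an FPKM of 1 or more in at least 3 of 6 libraries were tested with limma 3.58.1 (R 4.3.3, trend=TRUE, no replicate block, two-sided) on log2(FPKM + 1), with Benjamini-Hochberg adjustment over all 1737 and a threshold of 0.05. The pseudocount makes changes of low genes look smaller. The fit was checked on simulated data with known changes. No library pair was identical. Library sizes and read numbers (whole within 0.01) were recovered from FPKM times length. The smallest non-zero value among genes with 1 exon was taken as 1 read, and the size was then refined on the whole counts of these genes. Ratios were planned as a description; their exact permutation test was added. Sequences came from RefSeq promoters (GRCm38.p6) and GENCODE M21 coding sequences. Tables were made in Python 3.11.15 (SciPy 1.17.1, pandas 2.3.3) and figures with Matplotlib 3.10.9.

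Named genes were the 3 genes, list genes in the tables, genes sharing exons with them, and for each the 3 most correlated genes of 5 FPKM or more, without predicted models. Genes linked to the lists, and genes named from the deposited functional annotation, were chosen after their values were seen. Some of the linked genes are not reported here by name. The members and lists were chosen with earlier results of these data known. The settings varied were the pseudocount (0.1 and 5), the filter (none, and 5 FPKM), 3 other scalings, other limma settings, voom on recovered reads, a replicate block and leaving out each library; 3 library size or scaling alternatives were added after seeing the data.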

Additional observations from a re-analysis of the deposited data

How the results depend on the processing

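Gnai3 and Gna12 kept a higher mean and an adjusted p above 0.05 under all 21 alternatives, with log2 differences from 0.05 to 0.70 and from 0.03 to 0.65. Fer kept a lower mean under 20 of 21, down to -0.26. Rescaling to a common sum over the genes analysed, a sum that is largest in control replicate 1, turned Fer to 0.37 and moved the median of all genes to 0.35. Leaving out 1 library gave 0.10 to 0.18 for Gnai3, 0.08 to 0.17 for Gna12 and -0.21 to -0.12 for Fer, and 15 to 24 genes called over the whole table against 48. That count was 7 (6 higher, 85.7%) with the common sum, 26 (5 higher, 19.2%) with library sizes without the genes analysed, an alternative chosen after seeing the data, and 17 (3 higher, 17.6%) with the replicate block, against 41.7% higher as reported. The other 12 alternatives gave 43 to 64; the highest, without a filter, comes from a fit in which most variances are 0. The cause was not tested, except that leaving out a library leaves fewer samples. With the replicate block the adjusted p was 0.448 for Gnai3, 0.529 for Gna12 and 0.416 for Fer. Same-numbered libraries had deviations that correlated at 0.047, 0.138 and -0.084, and libraries of different number at -0.141 to 0.078. Not every library correlated best with its own number. Deviations from means of 3 libraries cannot settle whether the numbers pair the samples. Without each library in turn the Gnai3 to Fer ratio gave log2 differences of 0.26 to 0.38, the Fer to Gna12 ratio -0.35 to -0.23, both without overlap, and the Gnai3 to Gna12 ratio -0.02 (without control replicate 2, where the overlap ended) to 0.04. Read numbers of Fer are not whole, so its counting error is approximate.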
